A study of Mus musculus with 4 samples.

Results

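The genes described here are 49 components of the Wnt pathway, namely 17 Wnt ligands, 12 receptors, 4 nuclear factors, 6 feedback targets, 8 secreted antagonists and 2 secreted agonists. They were chosen by gene symbol, and every array probe whose RefSeq accession belongs to one of the symbols was read. All 49 had a probe, 61 probes in all, out of 20660 named genes on the array. The cells were derived from the EB5 line of mouse embryonic stem cells, which carried a reporter that marks activity of the homeobox gene Hoxb6 with red fluorescent protein (RFP). They had been differentiated for 6 days on OP9, a bone marrow stromal line used as a feeder layer. All of them had then been sorted as positive for Flk-1, the product of Kdr, a VEGF receptor used to mark early mesoderm. One group is the Flk-1+ Hoxb6-RFP+ fraction and the other the Flk-1+ Hoxb6-RFP- fraction, with 2 one-colour arrays each, so both groups carry the reporter and share line, feeder and day. Nothing in the labels says whether the 2 arrays of a fraction came from separate cultures, so p-values measure only the spread between these arrays, which may be technical.

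Wnt proteins are secreted lipid-modified ligands that bind Frizzled receptors together with the co-receptors Lrp5 and Lrp6. In the branch that runs through beta-catenin, binding stops the breakdown of that protein, which then joins the DNA-binding factors Lef1, Tcf7, Tcf7l1 and Tcf7l2 at target genes. Several targets, such as Axin2, Notum, Znrf3 and Rnf43, act back to dampen the signal. In the early embryo the pathway is known for its part in forming the primitive streak and mesoderm and in posterior patterning, in which Hox genes are also used.

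Each value below is the log2 of a probe's signal over the 75th percentile of its array. A difference is the RFP-positive mean minus the RFP-negative mean, with the standard error (SE) of the fit, and values of a gene are given in the order of replicates 1 and 2. Signals of different probes depend on the probe as well as on the transcript, so levels are compared between arrays and not between genes. Between 55.2% and 59.3% of the 59305 spots that are not controls were well above background on an array, by the scanner's own mark, and 0 were saturated. The RFP-positive arrays stood farther apart from each other than the RFP-negative ones, with an SD of the log2 difference over all genes tested of 0.75 against 0.55. The median distance between the 2 arrays of a fraction over all genes tested was 0.38 in the RFP-positive and 0.25 in the RFP-negative fraction. Over the Wnt genes this median was the smaller in the RFP-positive fraction, at 0.27 against 0.35. Their SD was the larger there, at 0.69 against 0.58, and Fzd9 lay 3.06 apart there, with 1 array not well above background. Hoxb6 stayed at background on all 4 arrays, so the reporter label could not be checked by its transcript. Kdr was at 4.18 and 4.33 on the RFP-negative and 4.41 and 4.36 on the RFP-positive arrays, all well above background, as the sort on Flk-1 requires.

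Of the 49 genes, 36 were well above background on all 4 arrays, 7 on some and 6 on none, namely Wnt2, Wnt3a, Wnt7b, Wnt8a, Dkk2 and Wif1. A gene was tested where its brightest probe was well above background on both arrays of at least 1 fraction. That held for 38 of them, and the other 11 were too dim. Fewer cells making a transcript and less transcript per cell cannot be told apart in these sorted populations.

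**Figure D1:**
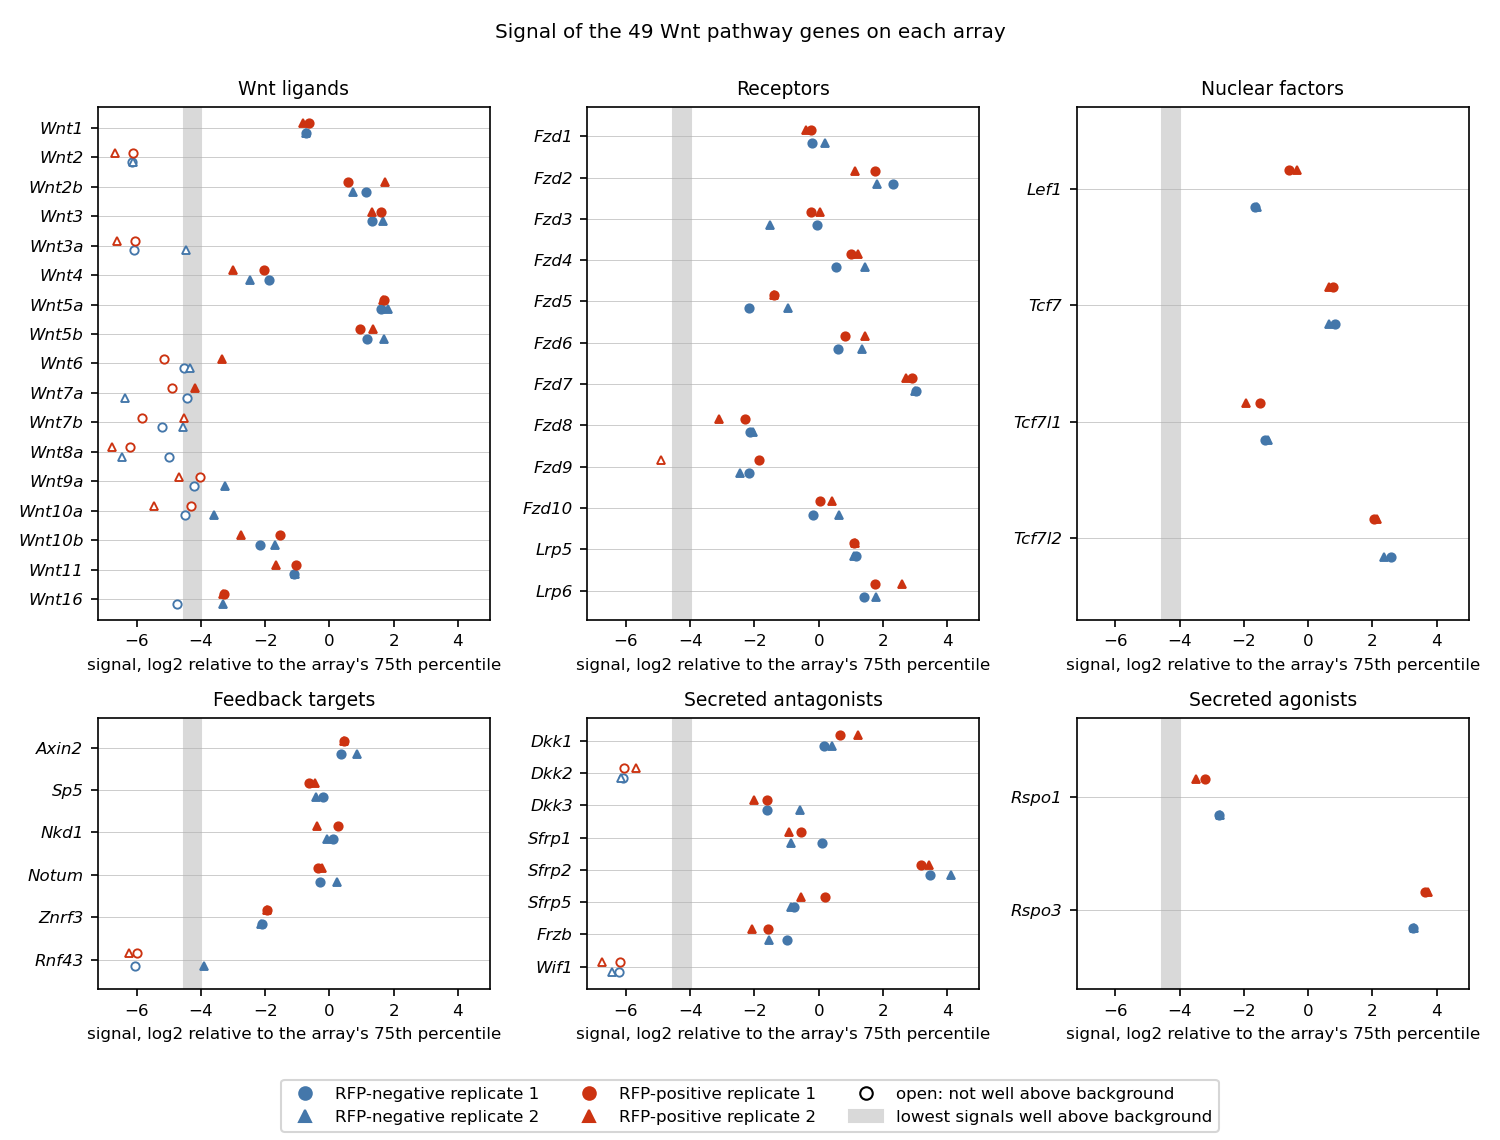
Signal of each of the 49 genes on the 4 arrays, by role, as log2 relative to the array's 75th percentile (horizontal axis). Blue points are RFP-negative and red points RFP-positive arrays, circles replicate 1 and triangles replicate 2, and open points were not well above background. Grey bands span the lowest signals well above background. The red and blue points of Lef1 lie clearly apart, while those of most ligands and receptors mix.

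The comparison of the fractions asked which Wnt genes differ between Flk-1-positive cells with and without activity of the Hoxb6 reporter. In limma's moderated test with Benjamini-Hochberg adjustment over 13435 genes, 0 of the 38 genes passed an adjusted p of 0.05, as did 0% of all genes. At an unadjusted p under 0.05 there was 1, Lef1 (p 0.00535), which is 2.63% of the 38 against 6.49% of all genes (2.77% higher and 3.72% lower). An exact permutation test of 2 arrays against 2 cannot give a p below 0.333, so single genes are described by their values on every array.

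For 16 of the 38 genes (42.1%) the values of one fraction all lay on one side of those of the other, against 40.3% of all genes tested. Of the 16, 6 were higher in the RFP-positive fraction (15.8%, against 18.8% of all genes) and 10 were lower (26.3%, against 21.6%). With the arrays scaled to their median instead of the 75th percentile the split was 8 higher and 6 lower, and with the mean of a gene's probes it was 6 higher and 14 lower. With means at least 1.5-fold apart as well there were 7 genes (18.4%, against 15.0% of all), namely Lef1, Dkk1, Sfrp5 and Wnt16 on the higher side (6.11% of all genes) and Fzd2, Fzd8 and Rspo1 on the lower (8.91% of all genes). Wnt16 is in this count only through an RFP-negative array on which it was not well above background. In none of the 38 were both arrays of one fraction at least 2-fold from both of the other, a distance that 1.36% of all genes reached (0.469% higher and 0.893% lower). The median difference was −0.11 over the 38 genes and −0.05 over all genes. These shares are near those of the array as a whole.

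**Figure D2:**
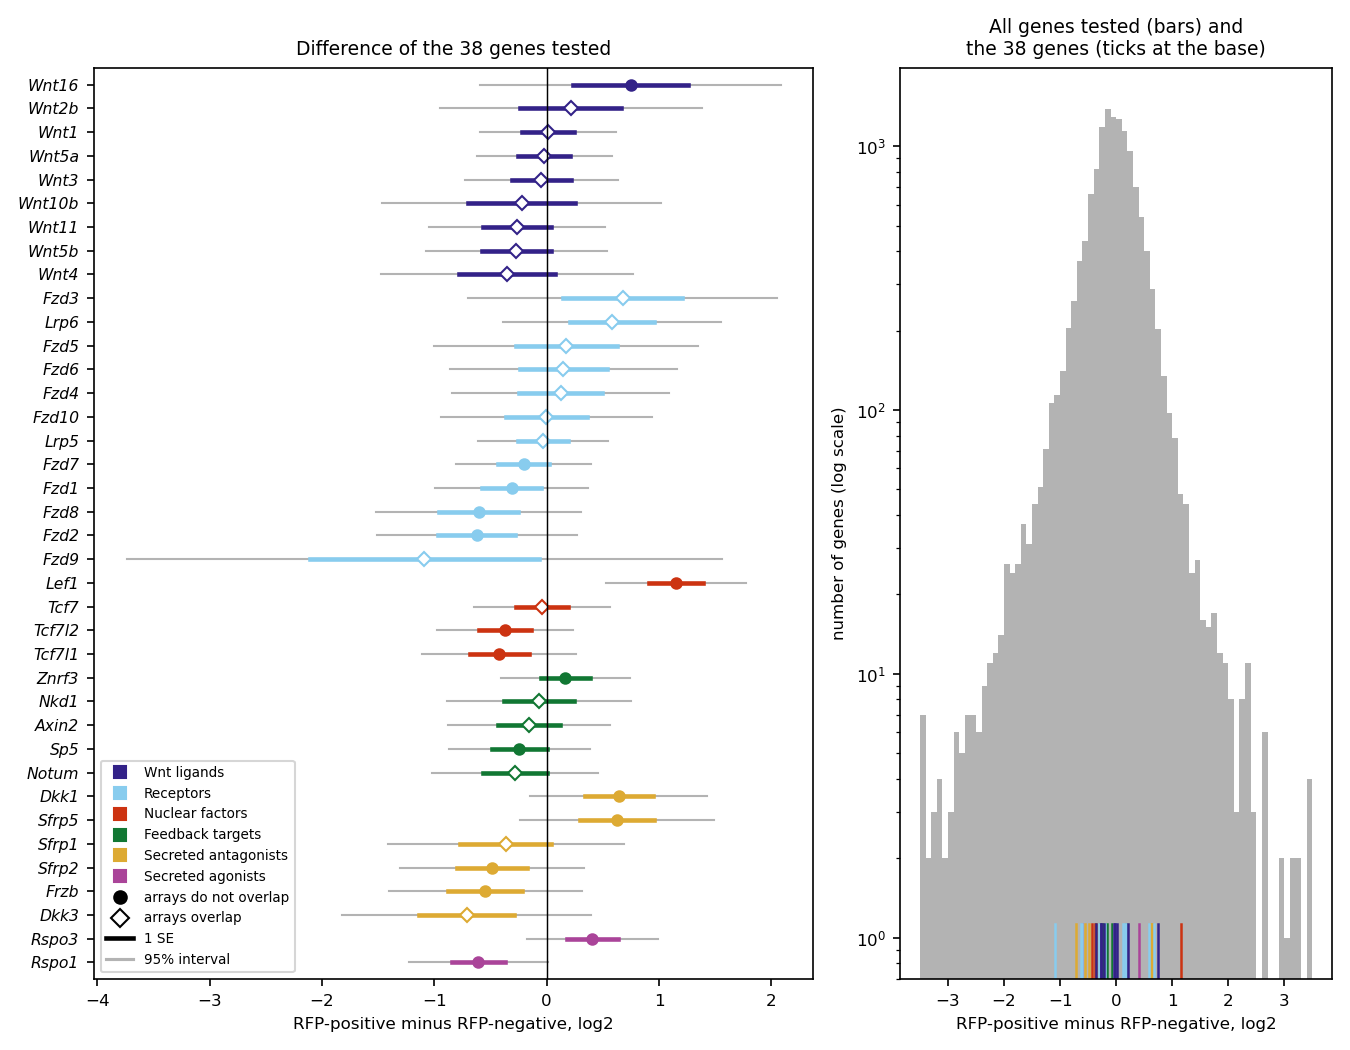
Left, difference of each of the 38 genes tested (RFP-positive minus RFP-negative, log2), with 1 SE as the coloured bar and the unadjusted 95% interval of the limma fit as the grey line. Filled circles mark genes whose arrays do not overlap between the fractions and open diamonds those that do. Right, the number of all genes tested per difference on a log axis, with values beyond the axis set at its ends and the 38 genes as ticks. Lef1 at 1.15 is the highest of the 38 and its interval, 0.53 to 1.78, does not reach 0.

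Marker genes of other cell populations were read on the same arrays. The sort for Flk-1 should remove OP9 stroma, adipocytes and epithelium. Here higher and lower mean without overlap between the fractions, which held for 18.8% and 21.6% of all genes tested. The marker lists were chosen with earlier results of these data known, so their counts are a description only. Of 10 markers of OP9 stroma and fibroblasts, 8 were tested and 7 were lower in the RFP-positive fraction without overlap, while Dcn and Postn stayed at background on all 4 arrays. Their summed signal, in multiples of the 75th percentile, was 65.1 and 106.4 on the RFP-negative and 54.7 and 42.2 on the RFP-positive arrays. All 8 adipocyte markers were lower without overlap, with sums of 48.6 and 58.6 against 20.2 and 14.7. Fabp4, at 4.86 and 4.97 against 3.63 and 3.05, makes up most of each of these sums. Of 8 endoderm and epithelium markers, 7 were tested and 3 were lower, namely Rbp4, Epcam and Cldn6. The other 4 tested overlapped. Ttr (−0.22) and Krt8 (−0.72) had lower means, and Sox17 (0.36) and Foxa2 (0.14) higher ones. The sums of this list were 15.6 and 29.9 against 15.2 and 14.9, and Afp stayed at background throughout. Among 5 endothelial markers, 4 were higher without overlap, with sums of 25.1 and 23.7 against 28.5 and 43.9. The nearest arrays almost met for Cdh5, the brightest of them (3.755 and 3.645 against 3.761 and 4.696). The same held for Pecam1 (1.492 and 1.756 against 2.039 and 1.778). Emcn overlapped, with a difference of −0.24. Of 5 blood markers 3 were higher without overlap, with sums of 2.48 and 2.51 against 5.45 and 3.58. Hbb-bh1 makes up most of the blood sum on RFP-positive replicate 1, but it overlapped, at 0.57 and 0.44 against 1.92 and 0.0049. Ptprc overlapped as well, with a difference of −0.40. Of the 6 mesoderm markers 4 were higher and 0 lower without overlap, with overlapping sums of 48.6 and 43.2 against 50.4 and 44.5. Among the 4 are Kdr, the gene of the sort, and Hand1, whose nearest arrays almost met (0.779 and 0.758 against 0.790 and 0.982). Etv2 overlapped but had a lower mean, at 3.77 and 3.10 against 3.21 and 2.22, a difference of −0.72. Of 5 markers of pluripotent cells, 4 were tested and 2 were lower, Zfp42 stayed at background throughout, and the sums of 582.5 and 485.3 against 501.4 and 404.4 overlapped. That sum is almost all Nanog, at 9.18 and 8.92 against 8.97 and 8.66, while Pou5f1 was at 0.47 and 0.29 against 0.24 and −1.58 and was lower without overlap. Whether the marker transcripts came from other cell types or from the Flk-1-positive cells themselves was not tested. The part of such other cell types in the Wnt gene values was not tested either.

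**Figure D3:**
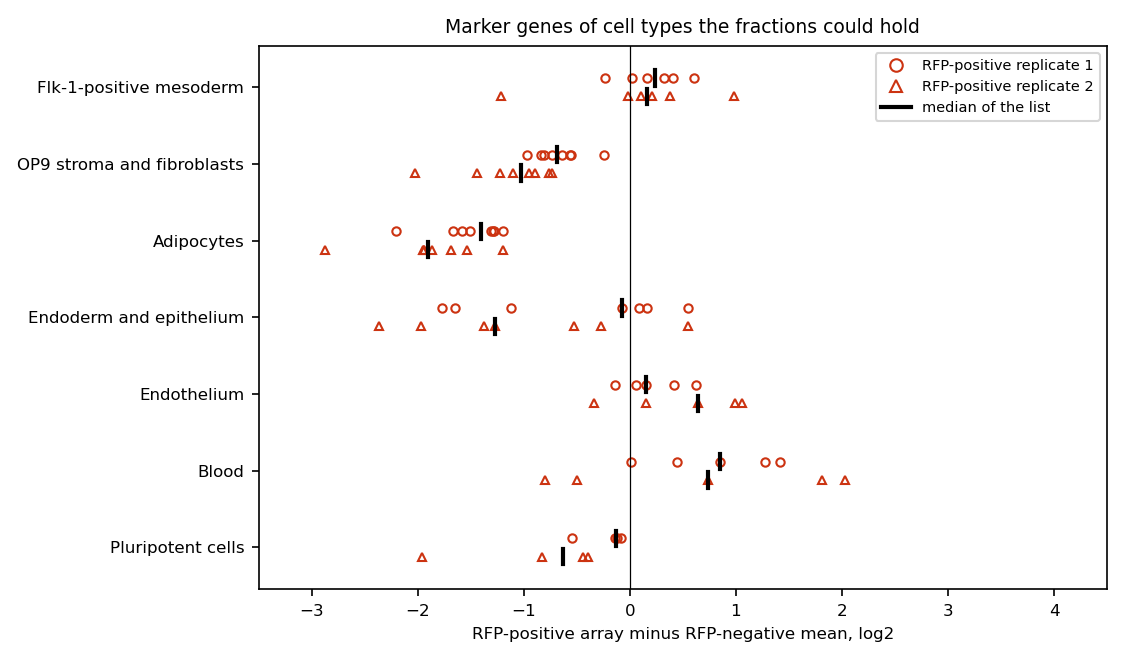
Marker genes of 7 cell populations on the RFP-positive arrays, each as the log2 difference from the RFP-negative mean (horizontal axis). Circles are RFP-positive replicate 1, triangles replicate 2 and black bars the median of the list on that array. Adipocyte and stromal markers lie below 0 on both arrays, while the endoderm list is near 0 on replicate 1 (median −0.07) and below it on replicate 2 (median −1.28).

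Among the nuclear factors, Lef1 was higher in the RFP-positive fraction and Tcf7l1 and Tcf7l2 were lower, each without overlap. Over all genes tested, 18.8% were higher and 21.6% lower without overlap. None of the 4 passed the adjusted threshold, and Lef1 was read by 1 probe only. Lef1 was at −1.65 and −1.60 on the RFP-negative arrays and at −0.61 and −0.34 on the RFP-positive arrays. Both RFP-positive values lay above both RFP-negative values, the nearest pair 0.99 apart. The difference was 1.15 (SE 0.24, limma adjusted p 0.635), a 2.22-fold higher mean in the RFP-positive fraction. Leaving out each array in turn gave differences between 1.02 and 1.29. Under normexp background correction of the median spot signals, followed by quantile normalization, it was 0.76. That setting also adds an offset of 50, which compresses dim signals by construction. The part of each of these changes was not tested.

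Tcf7l2 was lower on its brightest probe, going from 2.57 and 2.37 to 2.05 and 2.15. Its difference of −0.37 (SE 0.23, limma adjusted p 0.751) was small, with an unadjusted 95% interval of −0.98 to 0.23, but the fractions did not overlap. A second Tcf7l2 probe, for another RefSeq transcript, also showed no overlap, at 1.55 and 1.41 against 1.23 and 0.83. One more Tcf7l2 probe was well above background on 2 arrays only. Tcf7l1, which often acts as a repressor when beta-catenin is absent, was at −1.35 and −1.25 against −1.51 and −1.94, again lower without overlap. The 2 probes of Tcf7 disagreed. The brighter overlapped, at 0.85 and 0.65 against 0.77 and 0.65, and the dimmer did not, at 0.21 and 0.02 against −0.23 and −0.99.

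Differences between 2 genes on the same array do not depend on how the arrays are scaled to each other. Lef1 minus Tcf7l2 was −4.22 and −3.97 on the RFP-negative arrays and −2.66 and −2.49 on the RFP-positive arrays. Lef1 minus Tcf7l1 was −0.30 and −0.35 on the RFP-negative arrays and 0.90 and 1.61 on the RFP-positive arrays. The signal of Lef1 relative to that of Tcf7l2 was thus higher in the RFP-positive fraction by 1.52, and relative to that of Tcf7l1 by 1.58. Relative to the brighter Tcf7 probe it was higher by 1.195, at −2.50 and −2.25 against −1.37 and −0.99. The difference of Lef1 itself, 1.15, is part of each of these pairs. These pairs were chosen after the values had been seen, and no test was made of them.

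**Figure D4:**
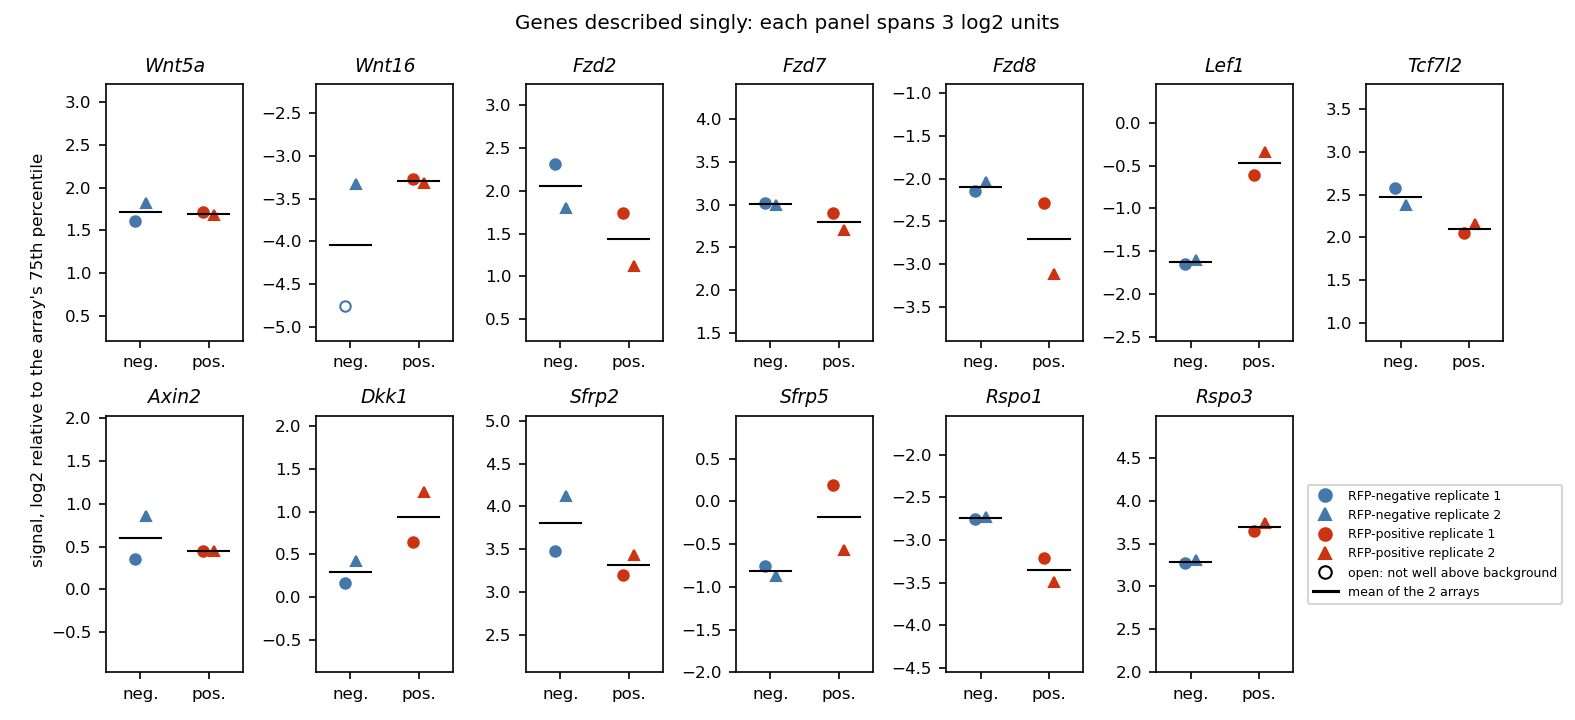
The 13 genes described with their full values, 1 panel each, as log2 signal relative to the array's 75th percentile (vertical axis, every panel spanning the same distance). Blue points are RFP-negative, red points RFP-positive, circles replicate 1, triangles replicate 2, and the black bar is the mean of the 2 arrays. The arrays of Lef1, Rspo1 and Rspo3 keep the clearest gaps, and the open point of Wnt16 was not well above background.

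The factors of the Lef1 family bind DNA at a core motif, and the promoters of the Wnt genes were read for it. RefSeq promoters of the GRCm38.p6 build, 250 bases before to 50 after a gene's start, were at hand for 34 of the 49 genes, with 43 promoters in all. The longer form searched was CTTTGAT, or ATCAAAG on the other strand, and the shorter form CTTTGA, or TCAAAG, which every longer match contains. The longer form was in 3 of the 43 promoters (6.98%), those of Sp5, Wnt5b and Wnt11, and in 3.73% of all 32851 promoters in the table. The shorter form was in 7 (16.3%), against 16.0% of all, adding Lef1, Dkk1, Frzb and Fzd1. The share with the shorter form was thus close to that of all promoters. The stretches below are those of the 3 longer matches and of the 4 genes with the shorter form alone, so that genes of both directions can be compared. The match is in capitals, and letters run 5′ to 3′ along the gene's own strand.
Sp5, chr2:70474799-70474845, + strand: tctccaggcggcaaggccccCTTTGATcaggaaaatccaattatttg
Wnt5b, chr6:119449431-119449477, - strand: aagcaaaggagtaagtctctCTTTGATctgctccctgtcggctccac
Wnt11, chr7:98835041-98835087, + strand: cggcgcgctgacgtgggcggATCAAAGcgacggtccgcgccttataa
Lef1, chr3:131156094-131156139, + strand: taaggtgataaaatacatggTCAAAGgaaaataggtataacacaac
Lef1, chr3:131156154-131156199, + strand: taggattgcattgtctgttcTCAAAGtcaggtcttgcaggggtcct
Dkk1, chr19:30549645-30549690, - strand: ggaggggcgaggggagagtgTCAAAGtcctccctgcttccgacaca
Dkk1, chr19:30549588-30549633, - strand: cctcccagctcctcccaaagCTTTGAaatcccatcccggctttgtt
Frzb, chr2:80447466-80447511, - strand: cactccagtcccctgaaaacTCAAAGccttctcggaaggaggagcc
Fzd1, chr5:4758433-4758466, - strand: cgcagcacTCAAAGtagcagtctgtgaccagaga
The Sp5 match begins 104 bases before the annotated start, that of Wnt5b 71 bases and that of Wnt11 51 bases before it. Both Lef1 matches, 180 and 120 bases before the start, belong to the last of 4 annotated Lef1 starts, which lies 45997 bases downstream of the first, and the other 3 Lef1 promoters held none. The Dkk1 matches begin 174 and 117 bases before the start, that of Frzb 95 and that of Fzd1 242 bases before it. A match describes these letters only and does not show that a factor binds there. The genes with a match did not share a direction. Lef1 and Dkk1 were higher without overlap, as were 18.8% of all genes tested. Sp5, Frzb and Fzd1 were lower without overlap, as were 21.6% of all genes. Their nearest arrays were only 0.03, 0.01 and 0.04 apart, so these 3 directions are weak. The arrays of Wnt5b and Wnt11 overlapped.

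The feedback targets are often read as a record of signalling through beta-catenin. Of 6 genes 5 were tested, 1 was higher and 1 was lower without overlap (18.8% and 21.6% of all genes), and the median difference was −0.16, against −0.05 over all genes. Axin2, which encodes a scaffold of the complex that breaks down beta-catenin, was at 0.35 and 0.86 on the RFP-negative and 0.45 and 0.45 on the RFP-positive arrays. Its arrays overlapped, with a difference of −0.16 (SE 0.28, limma adjusted p 0.877) and an unadjusted 95% interval of −0.88 to 0.57. The value rested on RFP-negative replicate 2, without which the difference turned to 0.10. A dimmer Axin2 probe read lower without overlap, at −1.63 and −1.49 against −2.12 and −2.60, and the mean of both probes gave −0.48.

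Sp5, which encodes a zinc finger repressor in the same loop, was at −0.18 and −0.41 against −0.64 and −0.45, lower without overlap by a gap of only 0.03 between the nearest arrays. Notum, which encodes an enzyme that removes the lipid from Wnt ligands, was at −0.29 and 0.25 against −0.36 and −0.24 and overlapped. Znrf3, whose product removes Frizzled receptors from the cell surface, was at −2.10 and −2.13 against −1.95 and −1.94. Its difference of 0.17 was small, but the 4 arrays were tight and the fractions did not overlap. Rnf43, its close relative, was well above background on RFP-negative replicate 2 alone, at −3.90. The 2 probes of Nkd1, an inhibitor of Dishevelled, had opposite signs. The brighter overlapped, at 0.10 and −0.09 against 0.27 and −0.39, and the dimmer was higher without overlap, at −1.43 and −1.19 against −0.54 and −1.15.

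Among the ligands, 8 of 17 were well above background on all 4 arrays, namely Wnt1, Wnt2b, Wnt3, Wnt4, Wnt5a, Wnt5b, Wnt10b and Wnt11. All 8 overlapped between the fractions on their brightest probe. Wnt5a, a ligand best known for signalling without beta-catenin, was at 1.61 and 1.82 in the RFP-negative and 1.71 and 1.68 in the RFP-positive fraction. Its difference was −0.02 (SE 0.23, limma adjusted p 0.979), with an unadjusted 95% interval of −0.62 to 0.58 that still allows a change of about 1.5-fold. The other 7 had differences between −0.35, for Wnt4, and 0.21, for Wnt2b.

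Wnt3, the ligand needed for the primitive streak, was at 1.34 and 1.68 against 1.60 and 1.33. Wnt11, another ligand that mostly signals without beta-catenin, was at −1.11 and −1.06 against −1.04 and −1.66. In both genes the RFP-positive arrays fell on either side of at least 1 RFP-negative array. Wnt2b spread more between the RFP-positive arrays, at 0.58 and 1.72, than between the fractions. For 2 ligands a dimmer probe read lower without overlap where the brighter did not. The dimmer Wnt1 probe was at −1.05 and −0.88 against −1.37 and −1.85, and the dimmer Wnt4 probe at −2.88 and −2.42 against −3.37 and −3.49. Both Wnt4 probes had a lower mean in the RFP-positive fraction, while the Wnt1 probes had opposite signs, with differences of 0.01 on the brighter and −0.64 on the dimmer.

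The remaining ligands were at or near background. Wnt16 was at −4.75 and −3.32 against −3.27 and −3.31, with RFP-negative replicate 1 not well above background. The fractions did not overlap, yet RFP-negative replicate 2 lay only 0.0086 below the nearest RFP-positive array, and the difference was 0.03 without RFP-negative replicate 1. Since only 1 of the 2 RFP-negative arrays measured Wnt16, the size of its difference is not given. A second Wnt16 probe overlapped. Wnt6 and Wnt7a had a signal well above background only on replicate 2 of the RFP-positive fraction, at −3.34 and −4.18. Wnt9a and Wnt10a were so on RFP-negative replicate 2 alone, at −3.25 and −3.58. For these 4, no fraction had a signal on both arrays.

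All 12 receptors were measured, 11 of them on every array. Of these 12, 4 were lower in the RFP-positive fraction without overlap, Fzd1, Fzd2, Fzd7 and Fzd8, and 0 were higher, against 21.6% and 18.8% of all genes, and the median difference was −0.02. Fzd2 was at 2.32 and 1.80 against 1.74 and 1.12, a difference of −0.62 (SE 0.34, limma adjusted p 0.75). A second Fzd2 probe did not bear this separation, at 1.81 and 1.84 against 1.40 and 1.88, and the mean of both gave −0.40. Without RFP-positive replicate 2 the Fzd2 difference was −0.32.

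Fzd8 was at −2.15 and −2.04 against −2.28 and −3.12, a difference of −0.61 (SE 0.35, limma adjusted p 0.751). RFP-positive replicate 2 carried most of it, since the value was −0.19 without that array, and under normexp it was −0.16. Fzd7, a Frizzled with known roles in the early embryo, was at 3.02 and 2.998 against 2.90 and 2.71, a difference of −0.21 (SE 0.23, limma adjusted p 0.813), and Fzd1 was at −0.21 and 0.20 against −0.25 and −0.39. The dimmer Fzd7 probe overlapped between the fractions.

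Of the co-receptors, Lrp5 was nearly level, at 1.17 and 1.11 against 1.099 and 1.12. Lrp6 was at 1.41 and 1.77 against 1.75 and 2.60 and overlapped by 0.02, and its other probe, at 1.41 and 0.91 against 1.47 and 2.998, did not. On both probes RFP-positive replicate 2 was the highest array. Fzd3, Fzd4, Fzd5, Fzd6 and Fzd10 overlapped, each with the RFP-positive arrays lying between the RFP-negative ones or beyond them on 1 side by less than the RFP-negative spread. Fzd9 had the widest spread of all 38 genes, at −2.17 and −2.44 against −1.86 and −4.92, the last not well above background.

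Of the 8 secreted antagonists 6 were tested. Without overlap, 2 were higher, Dkk1 and Sfrp5, and 2 were lower, Sfrp2 and Frzb, against 18.8% and 21.6% of all genes. Dkk1, whose product blocks Lrp5 and Lrp6, was at 0.17 and 0.43 against 0.65 and 1.23. Its difference was 0.64 (SE 0.30, limma adjusted p 0.745), with both RFP-positive arrays above both RFP-negative arrays, and it was 0.35 without RFP-positive replicate 2. Sfrp5, which encodes a decoy that binds Wnt ligands, was at −0.76 and −0.87 against 0.19 and −0.56. Its difference of 0.63 (SE 0.33, limma adjusted p 0.75) rested on RFP-positive replicate 1 and was 0.25 without it.

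Sfrp2, another decoy, was at 3.48 and 4.12 against 3.20 and 3.43, a difference of −0.49 (SE 0.31, limma adjusted p 0.752). RFP-negative replicate 2 set much of this gap, and without it the value was −0.16. Frzb, a related decoy, was at −0.99 and −1.55 against −1.57 and −2.06, lower by a gap of 0.01. Dkk3 was at −1.62 and −0.58 against −1.60 and −2.02 and Sfrp1 at 0.11 and −0.86 against −0.55 and −0.93, and both overlapped. RFP-negative replicate 2, highest for Sfrp2, Dkk3 and Axin2, was also the array with the highest summed stromal markers, 106.4 against 65.1 on RFP-negative replicate 1. Its summed adipocyte markers (58.6 against 48.6) and endoderm and epithelium markers (29.9 against 15.6) were the highest as well. It was also the highest array for Wnt3, Wnt5a, Wnt5b, Fzd1, Fzd4, Fzd10 and Notum, among others, and the lowest for Fzd3 and Sfrp5. Cxcl12 and Col1a2 make up most of the stromal sum and were higher on RFP-negative replicate 2 than on replicate 1. So were Col1a1 (0.86 against 0.66), Col3a1 (0.54 against −0.53), Timp1 (−1.06 against −1.31) and Lum (−1.61 against −2.28). Vcam1 and Thy1 were lower on RFP-negative replicate 2, at −1.50 against −1.38 and 1.02 against 1.39. The part of stroma or of these other cell types in the Wnt gene values was not tested.

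The 2 R-spondins, which strengthen Wnt signals by binding Lgr receptors and withdrawing Znrf3 and Rnf43 from the surface, went in opposite directions. Rspo3, which is known from mouse and frog embryos for a part in vascular development, was at 3.27 and 3.31 on the RFP-negative and 3.65 and 3.74 on the RFP-positive arrays. The arrays within each fraction lay within 0.09 of each other and the fractions did not overlap, with a difference of 0.41 (SE 0.22, limma adjusted p 0.75). It stayed between 0.36 and 0.49 in all alternatives tried. Rspo1 was at −2.76 and −2.73 against −3.22 and −3.49, a difference of −0.61 (SE 0.24, limma adjusted p 0.745), and was also without overlap. Under normexp Rspo1 was at a difference of −0.18, in the same direction. On the same arrays, Rspo3 minus Rspo1 was 6.03 and 6.04 in the RFP-negative and 6.87 and 7.23 in the RFP-positive fraction, a pair chosen after the values had been seen.

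Beyond the 49 genes, a list of 60 other components of the pathway was read, of which 50 were tested. It covers ligand secretion, Lgr and other receptors, Dishevelled and planar polarity genes, the complex that breaks down beta-catenin, co-factors and further inhibitors. Of the 50, 0 passed the adjusted threshold, 13 were higher (26.0%, against 18.8% of all genes) and 9 lower (18.0%, against 21.6%) without overlap, and the median difference was −0.05, the same as over all genes. At an unadjusted p under 0.05 there were 2, against 6.49% of all genes. Celsr1, which encodes a cadherin of planar cell polarity, was at −0.73 and −1.93 against −0.13 and 0.70, a difference of 1.61. Ptk7, a co-receptor of the same branch, was at 0.49 and 0.30 against −0.17 and −0.29, a difference of −0.62. Both were without overlap, and the limma adjusted p was 0.745 for each.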

How the data were processed

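Total RNA of the sorted fractions was hybridised to 4 Agilent arrays. Per the file headers, the intensity values are the processed signals of Agilent's Feature Extraction software, version 10.10.1.1. The authors' deposited value table holds the same intensity values multiplied by 1 constant per array, which no source used here explains. The 4 arrays shared 1 slide and 1 scan, so no batch could be tested.

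From the signals, 3671 control spots and between 115 and 153 outlier spots per array were left out, and log2 values relative to the 75th percentile were computed. Probes were named by RefSeq accession (GRCm38.p6 table): 27235 of 55681 had 1 symbol and 28446 none. The brightest probe stood for a gene. The comparison was a two-sided limma fit (version 3.58.1, R 4.3.3) without a block, over 13435 genes, of which 2 lacked a value on 1 array. The fit was run on simulated arrays with independent noise and, for each gene, the same spread in both fractions. That check required only that known changes were returned on average. It does not bear on the p-values of the real arrays, whose spreads differed between the fractions. Alternatives in the values were quantile and median scaling, the deposited table and the mean of probes. Normexp was another, run on the median spot and background signals and followed by quantile normalization. The remaining alternatives were an intensity trend, other filters on dim probes, a replicate block and leaving out each array. Figures used matplotlib 3.10.9.

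Full values are given for genes without overlap and at least 1.5-fold apart, for genes at an unadjusted p under 0.05 and for the brightest probe of each role. Of the further pathway list, genes at that p are named, at most 4. Values of other genes were added after the data had been seen. The genes and lists were chosen with earlier results of these data known. Same-numbered arrays were not treated as pairs, since the correlation of their deviations was 0.09 and no label gives the number a meaning.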

Additional observations from a re-analysis of the deposited data

How the results depend on the processing

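The number of Wnt genes, of other pathway genes and of all genes past the adjusted threshold was 0 under each of the 13 alternatives. The cause of the changes below was not tested. Of the 38 Wnt genes, 21 kept their sign in every fit without 1 array and 32 in every scaling. Wnt5a turned to 0.064 with median scaling, and its range without 1 array was −0.126 to 0.0851. Axin2 ranged from −0.411 to 0.10 without 1 array, the last without RFP-negative replicate 2. Leaving out 1 array gave 387 to 2754 genes at an unadjusted p under 0.05 (872 with all arrays, 387 without RFP-negative replicate 2 and 2754 without RFP-positive replicate 1). Among the Wnt genes it gave 2 to 6 such genes, 7 to 13 higher and 14 to 20 lower without overlap, and medians of −0.23 to −0.023. Separation is easier with 3 arrays by construction. Among the other pathway genes it gave 0 to 8 at that p, 18 to 21 higher, 12 to 22 lower and medians of −0.038 to 0.0076.

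Requiring signal on all 4 arrays gave 2 Wnt genes at an unadjusted p under 0.05, over fewer genes. Median scaling left 6 lower without overlap, and the mean of probes gave 14. The Wnt median was −0.25 with the mean of a gene's probes and −0.21 without a filter. For the other pathway genes, the count at that p was 4 with an intensity trend, 8 with normexp, 1 with median scaling and 4 with signal on all arrays. Their median was 0.034 with probe means, −0.078 without a filter, 0.032 with normexp, 0.0196 with quantile normalization and 0.033 with median scaling. With the replicate block 0 genes passed, 1039 had an unadjusted p under 0.05, and Lef1 remained the only one of the 49. Signal over background limits the 11 untested Wnt genes, Wnt16 and Fzd9.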
